A study of Homo sapiens with 16 samples.

Results

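The genes described here encode the classical and non-classical MHC class I heavy chains HLA-B, HLA-C, HLA-E and HLA-F, their light chain B2M, the peptide transporter subunits TAP1 and TAP2, the loading chaperone tapasin (TAPBP) and the class I transactivator NLRC5. They were chosen by name, and all 9 are present with 1 row each among the 60603 genes of the count table. Their RNA was followed in 16 libraries of cultured human leukaemia cells. The cells were SKNO-1 and U-937 (2 lines, both labelled as acute myeloid leukaemia lines). Each was grown for 24 h with the vehicle DMSO, with all-trans retinoic acid (ATRA), with Corin, or with ATRA and Corin together. Each agent was used at 0.1 µM, and each of the 8 groups holds 2 libraries. SKNO-1, which carries the RUNX1::RUNX1T1 fusion, was cultured with GM-CSF at 10 ng/mL in all its groups, which the labels state for SKNO-1 alone, and U-937 is a monocytic line established from a histiocytic lymphoma. ATRA is the ligand of the retinoic acid receptors, and Corin is a hybrid molecule that inhibits the LSD1 and HDAC enzymes of the CoREST corepressor complex. Nothing in the labels says that the 2 libraries of a group came from separate cultures, so p-values measure only the spread between these libraries.

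MHC class I molecules show peptides from inside the cell to CD8 T cells and to NK cells. A heavy chain pairs with B2M in the endoplasmic reticulum, where the TAP1-TAP2 heterodimer pumps in peptides made by the proteasome and tapasin holds the empty molecule at the transporter until a peptide fits. Transcription of these genes is driven by NLRC5, which is recruited through the RFX, NF-Y and CREB proteins on the SXY module, and by IRF1 and NF-kappa B proteins, which bind upstream of it, and interferons raise most of the pathway together.

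All members except B2M and NLRC5 lie on the short arm of chromosome 6, in the MHC. In hg38 with GENCODE release 44 the coordinates are chr6:31353872-31367067 for HLA-B, chr6:31268749-31272130 for HLA-C, chr6:30489509-30494194 for HLA-E, chr6:29722775-29738528 for HLA-F and chr6:33299694-33314284 for TAPBP. TAP1 at chr6:32845209-32853816 and TAP2 at chr6:32821833-32838739 sit in the class II region beside the immunoproteasome genes PSMB8 and PSMB9. B2M is at chr15:44711358-44718851 and NLRC5 at chr16:56989485-57083531.

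Promoter windows of 300 bases, from 250 bases before to 50 bases after each start, were taken from RefSeq (GRCh38.p14) for the 7 members with an entry. HLA-E and NLRC5 have no entry. The windows of HLA-B and B2M are printed as examples of members that rose with at least 1 treatment in each line, as HLA-C and TAPBP also did. Those of TAP1 and TAP2 are printed because the transporter subunits moved apart. Capitals mark 3 motifs, each searched on both strands. They are the core of the interferon-stimulated response element (ISRE), spelled GAAA, any 2 bases, GAAA, then a variant of it spelled GAA, any 2 bases, GAAAC, and the kappa B site. Where ISRE cores overlap, the capitals run together. The sequences read 5′ to 3′ on the strand of the gene.

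HLA-B, chr6:31357130-31357429, minus strand: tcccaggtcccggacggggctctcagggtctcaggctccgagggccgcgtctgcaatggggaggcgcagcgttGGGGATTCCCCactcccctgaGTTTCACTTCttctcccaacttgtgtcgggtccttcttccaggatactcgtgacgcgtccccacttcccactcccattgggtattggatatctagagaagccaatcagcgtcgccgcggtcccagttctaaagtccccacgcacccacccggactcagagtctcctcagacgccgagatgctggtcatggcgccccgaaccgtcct
B2M, chr15:44711267-44711566, plus strand: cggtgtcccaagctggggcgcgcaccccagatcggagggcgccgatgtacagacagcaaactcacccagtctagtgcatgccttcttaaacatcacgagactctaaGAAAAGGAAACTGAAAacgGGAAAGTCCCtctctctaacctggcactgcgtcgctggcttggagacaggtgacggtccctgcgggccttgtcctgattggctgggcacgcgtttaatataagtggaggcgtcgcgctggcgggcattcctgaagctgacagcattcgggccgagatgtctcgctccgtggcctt
TAP1, chr6:32853655-32853954, minus strand: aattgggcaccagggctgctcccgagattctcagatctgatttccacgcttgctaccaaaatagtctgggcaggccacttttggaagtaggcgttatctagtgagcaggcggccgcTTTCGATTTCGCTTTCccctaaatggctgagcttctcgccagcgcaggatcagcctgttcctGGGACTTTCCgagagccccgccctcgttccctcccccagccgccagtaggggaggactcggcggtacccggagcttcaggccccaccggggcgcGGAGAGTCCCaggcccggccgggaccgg
TAP2, chr6:32838690-32838989, minus strand: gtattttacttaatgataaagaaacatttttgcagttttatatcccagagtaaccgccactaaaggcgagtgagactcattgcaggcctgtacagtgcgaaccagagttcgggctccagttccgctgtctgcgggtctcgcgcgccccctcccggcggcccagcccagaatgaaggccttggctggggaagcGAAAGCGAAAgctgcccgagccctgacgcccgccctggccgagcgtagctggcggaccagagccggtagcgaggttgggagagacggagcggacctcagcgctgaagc

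The ISRE core is present in HLA-F, B2M, TAP1, TAP2 and TAPBP, and 3.57% of the 35116 RefSeq promoters of this length hold it. In B2M, TAP1 and TAPBP it occurs as 2 overlapping copies. HLA-B and HLA-C hold no ISRE core. They hold the variant, a pattern chosen after their promoters had been read, which 1.46% of all promoters have. A kappa B site is present in HLA-B, HLA-C, B2M, TAP1 and TAPBP and in 11.3% of all promoters. The CCAAT box, spelled CCAAT (34.6% of all promoters), was found in HLA-B, HLA-C, HLA-F, B2M and TAP1. No member holds 2 copies of GGTCA with any 5 bases between them, a pattern in 0.0854% of all promoters. This spelling is not that of the retinoic acid receptor repeat, which was not searched. TAP1 matches are those of the printed window. A second TAP1 window, chr6:32852712-32853011, holds no ISRE core, variant, kappa B site or CCAAT box. All these matches describe letters only. The TAP1 and PSMB9 starts lie 488 bases apart and point away from each other, and those of TAP2 and PSMB8 lie 5940 bases apart on the same strand.

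Total counts per library were 32.8 to 37.8 M in SKNO-1 and 28.4 to 37.6 M in U-937. The 2 SKNO-1 DMSO libraries stood apart from each other. The SD of their log2 difference over genes was 0.361, against 0.108 to 0.209 in the other groups, and across 9344 genes that difference followed GC content (r = 0.796, across genes, which are not independent replicates). Leaving out either DMSO library changed several SKNO-1 calls, and values without that library stand beside the results. All 6 myeloid markers had counts in both lines, but MPO was under 1 TPM in U-937. CSF1R was also low, with group means of 0.08 TPM in SKNO-1 DMSO, 0.39 in SKNO-1 ATRA and 0.33 in U-937 DMSO. In the other groups it was at 1.06 to 7.54 TPM. The myeloid list moved with Corin in U-937, where its summed level was 279.75 to 347.81 TPM in the 4 libraries without Corin and 1687.83 to 1839.56 TPM in the 4 with it, mostly through LYZ. In SKNO-1 the list was at 983.39 to 1160.18 TPM without Corin and 803.89 to 907.32 with it. There the mean of MPO was 857.7 TPM in DMSO, 1030 under ATRA, 523.5 under Corin and 553.5 under the combination, and that of LYZ was 45.1, 31.0, 228 and 213.4. The B-cell list, mainly CD79A, summed to 0.34 to 0.71 TPM in SKNO-1 without Corin and 1.42 to 2.06 with it, and MS4A1 was at 0. RUNX1T1 was detected in SKNO-1 (25.2 to 40.6 TPM by group) and near 0 in U-937, and HOXA9 was at 0 counts in SKNO-1 and between 25.5 and 37.9 TPM in U-937. Among markers of other cell types, the T-cell receptor genes CD3D, CD3E and CD3G were at or under 0.145 TPM as group means. NKG7, the remaining gene of the T and NK cell list, reached 122.6 to 183.3 TPM in U-937. The summed level of that list in U-937 ran from 154.1 to 155.5 TPM with DMSO, 182.7 to 183.9 with ATRA, 128.8 to 130.2 with Corin and 118.6 to 126.5 with both agents. These markers moved with the treatments, and their part in the results was not tested.

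Levels of different genes are compared in TPM, which corrects for length. In DMSO, B2M was the most abundant member in both lines, at 1680 and 2567 TPM in SKNO-1 and 1926 and 2092 TPM in U-937. The order in SKNO-1 was then HLA-E (26.9 ± 2.94 TPM, SD, n = 2), HLA-B (19.2 ± 0.799), TAPBP (9.19 ± 0.976), NLRC5 (8.72 ± 1.61), HLA-C (4.49 ± 1.05), TAP1 (1.86 ± 0.198) and TAP2 (1.65 ± 0.382), with HLA-F at 0. TAPBP and NLRC5 overlapped, as did TAP1 and TAP2. In U-937 it was HLA-B (247 ± 10.6 TPM), HLA-C (80.04 ± 5.32), HLA-E (32.1 ± 0.764), TAP2 (19.9 ± 0.0778), TAPBP (16.2 ± 2.8), TAP1 (14.3 ± 0.544), NLRC5 (8.02 ± 0.933) and HLA-F (0.165 ± 0.0919), where only TAPBP and TAP1 overlapped.

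**Figure D1:**
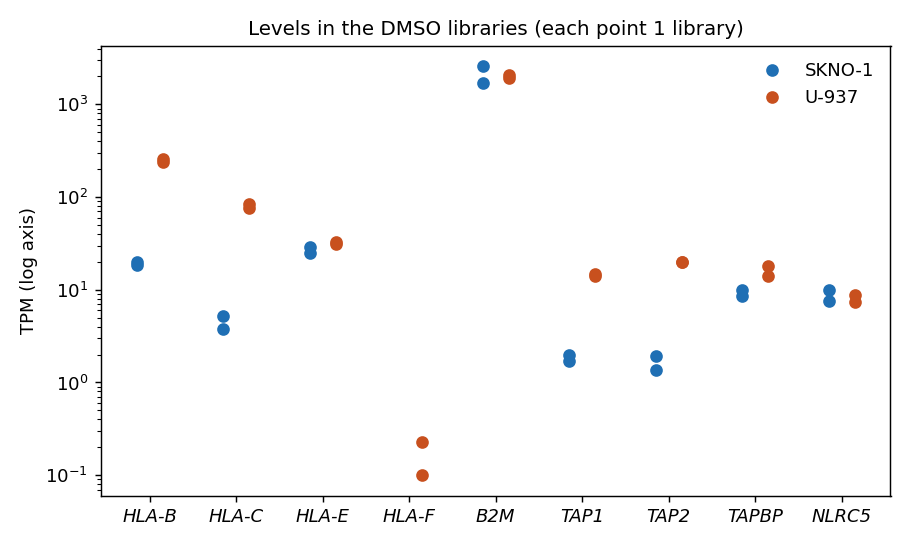
TPM of each member in the 4 DMSO libraries on a log axis, 1 point per library, SKNO-1 in blue and U-937 in orange. B2M lies near 2000 TPM in both lines, HLA-B, HLA-C, TAP1 and TAP2 lie higher in U-937, and the SKNO-1 values of HLA-F are 0 and are not drawn.

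Between the untreated lines, 6 members were higher and 1 lower in U-937, of 9 tested, where 64.8% of all 19872 genes were called, 31.7% higher and 33.1% lower. A call here is a Benjamini-Hochberg adjusted p under 0.05 in edgeR's quasi-likelihood test. HLA-C was 16.5-fold higher in U-937 (log2 difference 4.05, SE 0.125, adjusted p = 1.21e-15) and HLA-B 10.9-fold (3.45, SE 0.122, adjusted p = 7.76e-15). TAP2 was 9.93-fold and TAP1 5.97-fold higher, and TAPBP 1.38-fold. TAPBP lost its call without U-937 DMSO replicate 1 (log2 0.28, adjusted p = 0.0603). HLA-F had 9 counts over the 2 U-937 libraries and 0 over the 2 SKNO-1 libraries. With 3 counts over the SKNO-1 group taken as the floor, the ratio is 3.25, which leaves out the counting error of the 9. HLA-F passed the filter on low counts only through U-937 libraries in which it was high. Its call is therefore counted among the 6 but read no further. B2M was 1.31-fold lower in U-937 (adjusted p = 0.00239), and HLA-E and NLRC5 were not called (log2 -0.09 and -0.18). RSEM, the authors' counting program, divides reads that fit several genes, and 15 of the 16 estimated counts of HLA-B and 15 of those of HLA-C were not whole numbers. Their levels are model estimates that share reads with paralogs. How the class I alleles of each line fit the reference sequence was not analysed here, so levels of HLA-B and HLA-C compared between lines carry that uncertainty.

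Below, levels of 1 gene across groups are in CPM unless TPM is named. CPM is counts scaled by the TMM-adjusted library total within a line. Differences are on the log2 scale, with their SE from the fit of the 8 libraries of that line.

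In SKNO-1, class I genes rose with Corin, with or without ATRA. Corin raised HLA-B, HLA-C, HLA-E, B2M and TAP2 and lowered TAPBP, so that 5 members were higher and 1 lower of the 8 tested (37.9% of all 17479 genes were called, 20.5% higher and 17.3% lower). Both agents raised HLA-B, HLA-C, HLA-E and TAP2, 4 higher and 0 lower (46.7% of all genes, 24.7% higher and 22% lower). ATRA alone raised TAPBP and lowered NLRC5 (6.76% of all genes, 2.96% higher and 3.79% lower). Without DMSO replicate 1, 7 of the 8 members were called with ATRA, where 29.1% of all genes were called. The median log2 difference of the 8 members was 0.385 with ATRA, 0.522 with Corin and 0.588 with both, and the median of all genes tested was 0.0117, 0.00129 and 0.0552. HLA-F was not tested in SKNO-1. It had 0 counts with DMSO, ATRA or Corin, and 1 and 2 counts in the 2 libraries with both agents, which is at the floor of 3 counts.

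In U-937, more members were called with ATRA than with Corin. With ATRA 7 of 9 members rose and 1 fell, where 41.8% of all 17717 genes were called, 21.7% higher and 20.1% lower. With Corin 2 rose and 0 fell, where 12.9% were called, 8.55% higher and 4.4% lower. With both agents 8 rose and 1 fell, where 65.3% were called, 33.1% higher and 32.2% lower. The member that fell with ATRA and with both agents was TAP2. The counts include HLA-F, which passed the filter on low counts only through the libraries in which it was high. Without it, 6 of 8 members rose with ATRA and 7 of 8 with both. In TPM, however, TAP1 was lower with both agents than with DMSO, and TAPBP and NLRC5 with both agents overlapped DMSO. The median log2 difference of the 9 members was 0.754 with ATRA, 0.160 with Corin and 1.11 with both, against 0.0182, 0 and 0.0340 over all genes. HLA-F lay above each of these member medians, so they would be lower without it. The SKNO-1 medians leave HLA-F out and are therefore not like for like.

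**Figure D2:**
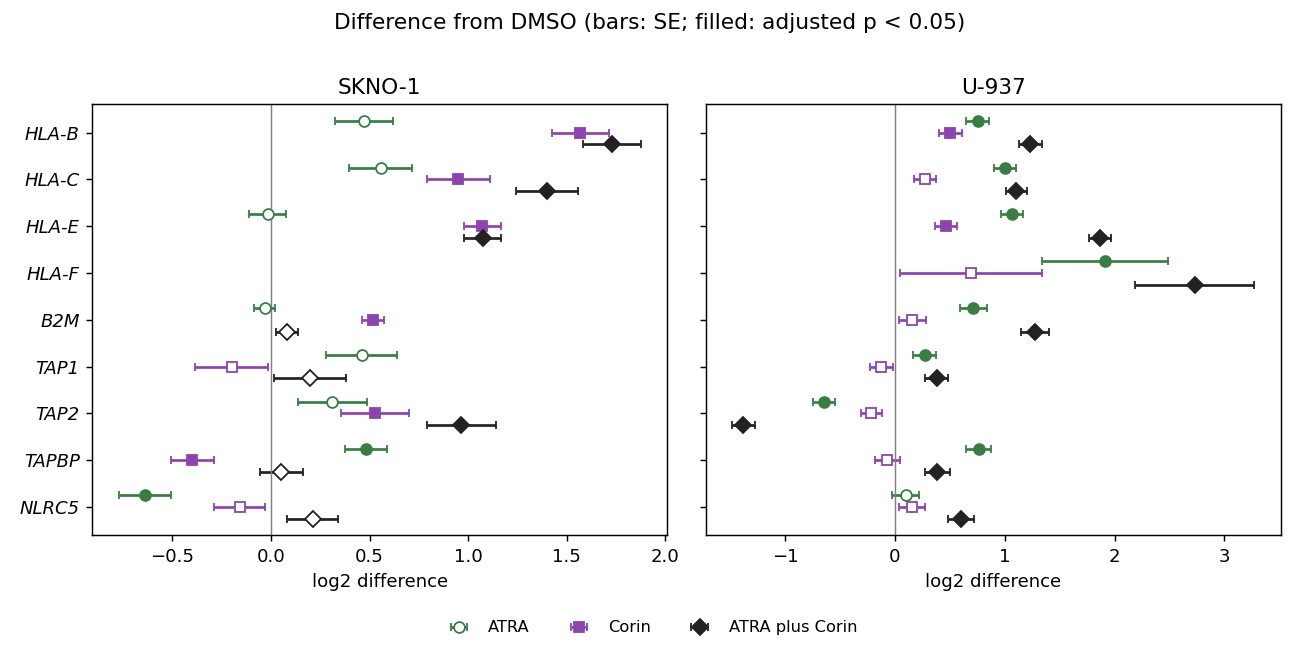
Log2 difference from DMSO for each member in SKNO-1 (left) and U-937 (right), with ATRA (green circles), Corin (purple squares) or both agents (black diamonds). Bars are 1 SE and filled symbols passed an adjusted p of 0.05. TAP2 lies right of 0 with both agents in SKNO-1 (0.97) and left of 0 in U-937 (-1.38). HLA-F was not tested in SKNO-1.

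HLA-B is a classical heavy chain that presents peptides to CD8 T cells. In SKNO-1 it was at 14.9 and 10.6 CPM in DMSO, 17.0 and 18.3 under ATRA, 37.5 and 37.9 under Corin and 41.1 and 43.4 under the combination. All 4 libraries that had received Corin were above the other 4. The log2 difference from DMSO was 1.57 with Corin (SE 0.145, 2.97-fold, adjusted p = 0.000157) and 1.73 with both (SE 0.146, 3.32-fold, adjusted p = 6.89e-05). The difference with ATRA alone was 0.47 (SE 0.146) and was not called (adjusted p = 0.119), though both ATRA libraries lay above both DMSO libraries. Without DMSO replicate 1 it was 0.69 and was called (adjusted p = 8.75e-06), and with the GC trend of each library removed it was 0.45 and was called (adjusted p = 0.00786).

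In U-937, HLA-B was at 150.3 and 152.7 CPM in DMSO, 247.5 and 263.3 under ATRA, 231.7 and 198.1 under Corin and 344.9 and 367 under the combination. No treated library overlapped the DMSO libraries, and the 2 libraries with both agents were the highest. HLA-B rose by 0.75 with ATRA (SE 0.103, adjusted p = 2.40e-06), 0.51 with Corin (SE 0.103, adjusted p = 0.00135) and 1.23 with both (SE 0.104, 2.35-fold, adjusted p = 2.54e-10). The departure from additivity, which subtracts both single-agent log2 effects from that of the combination, was -0.03 (SE 0.144, adjusted p = 0.928).

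HLA-C, the heavy chain that is the main ligand of the killer-cell immunoglobulin-like receptors, was the lowest classical heavy chain in SKNO-1. It was at 4.83 and 4.16 CPM there in DMSO, 6.09 and 7.11 under ATRA, 9.60 and 7.76 under Corin and 11.7 and 12 under the combination. All 6 treated libraries were above both DMSO libraries. The rise was 0.95 with Corin (SE 0.158, adjusted p = 0.00251) and 1.40 with both (SE 0.158, 2.64-fold, adjusted p = 0.000283), and the ATRA difference of 0.56 was not called (adjusted p = 0.0939). Without DMSO replicate 1 the ATRA difference was 0.62 and was called (adjusted p = 0.00756). In U-937 it was at 80.6 and 81.3 CPM in DMSO, 153.7 and 171.2 under ATRA, 104.1 and 91.4 under Corin and 170.7 and 177.9 under the combination. ATRA and the combination overlapped each other. HLA-C rose by 1.00 with ATRA (SE 0.0997, 2.01-fold, adjusted p = 1.86e-08) and by 1.11 with both (adjusted p = 8.89e-10), and Corin added to ATRA gave 0.10 (SE 0.0979, adjusted p = 0.416). Corin alone gave 0.27, which was not called (adjusted p = 0.0750), but was called without Corin replicate 2 (0.36, adjusted p = 0.0443).

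HLA-E, which presents leader peptides of other heavy chains to the NKG2A receptor of NK cells, behaved differently in the 2 lines under ATRA. SKNO-1 libraries had 85.5 and 69.5 CPM of HLA-E in DMSO, 75.2 and 78.0 under ATRA, 166.1 and 159.5 under Corin and 163.5 and 162.7 under the combination. The ATRA libraries lay within the DMSO range, and the 4 libraries with Corin lay together at a higher level. HLA-E rose by 1.07 with Corin (SE 0.0935, 2.10-fold, adjusted p = 0.000116) and by 1.07 with both (SE 0.0936, adjusted p = 8.19e-05). The ATRA difference was -0.02 (SE 0.0933, adjusted p = 0.963), and it was -0.20 and called without DMSO replicate 2 (adjusted p = 0.00466). ATRA added to Corin gave 0.00 (0.0024, SE 0.0920, adjusted p = 0.990). With the GC trend removed this difference was -0.18 and was called lower (adjusted p = 0.00934).

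In U-937, HLA-E was at 81.8 and 76.5 CPM in DMSO, 161.5 and 169.5 under ATRA, 115.8 and 102 under Corin and 278.6 and 298.6 under the combination. The 4 groups did not overlap, and the 2 libraries with both agents were the highest of the 8. The rise was 1.06 with ATRA (SE 0.100, adjusted p = 7.59e-09), 0.46 with Corin (SE 0.0998, adjusted p = 0.00241) and 1.87 with both (SE 0.102, 3.65-fold, adjusted p = 9.05e-14). The Corin call was lost without Corin replicate 1 (0.36, adjusted p = 0.0543) and without DMSO replicate 2 (0.41, adjusted p = 0.0580).

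HLA-F, a non-classical heavy chain, was the lowest member throughout. In U-937 it had 6 and 3 counts in DMSO, 17 and 21 under ATRA, 7 and 9 under Corin and 33 and 28 under the combination. Both ATRA and both combination libraries were above the others. The ratio of scaled counts to DMSO was 3.75 with ATRA (95% exact conditional interval 1.78 to 8.81), 1.60 with Corin (0.666 to 4.11) and 6.62 with both (3.27 to 15.2), where the intervals cover counting error only. HLA-F passed the filter on low counts only through the libraries in which it was high, so its calls with ATRA and with both agents are counted above but read no further here. The ATRA call was lost with DESeq2 (adjusted p = 0.0587), without ATRA replicate 2 (adjusted p = 0.0832) and without DMSO replicate 2 (adjusted p = 0.0963).

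B2M, the light chain shared by all class I molecules, differed between single and combined treatment in SKNO-1. It was at 1170 and 1243 CPM in DMSO, 1173 and 1185 under ATRA, 1767 and 1683 under Corin and 1293 and 1260 under the combination. The 2 Corin libraries were above all others. B2M rose by 0.52 with Corin (SE 0.0549, 1.43-fold, adjusted p = 0.000302), and it was lower by 0.43 on the log2 scale with both agents than with Corin alone (-0.43, SE 0.0549, adjusted p = 0.00256), a call that was lost without replicate 2 of the combination (-0.42, adjusted p = 0.0581). The ATRA difference was -0.03 (adjusted p = 0.847), and -0.12 and called without DMSO replicate 1 (adjusted p = 0.0200). With both agents the difference from DMSO was 0.08 (SE 0.0548, adjusted p = 0.262). It was called without DMSO replicate 2 (0.12, adjusted p = 0.0159) and with the GC trend removed (0.33, adjusted p = 0.000146). The longest B2M transcript has 38.9% GC, the lowest share among the 9 members, and their highest is 62.7% in HLA-C. The departure from additivity was -0.40 (SE 0.0775) and was not called (adjusted p = 0.0830), but was called with DESeq2 (adjusted p = 0.0157), with no filter on low counts (adjusted p = 0.00138) and without either DMSO library.

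In U-937, B2M was at 984.7 and 1032 CPM in DMSO, 1634 and 1668 under ATRA, 1226 and 1027 under Corin and 2270 and 2611 under the combination. The Corin libraries overlapped DMSO, and both combination libraries were above every other library. B2M rose by 0.71 with ATRA (SE 0.123, 1.64-fold, adjusted p = 5.03e-05) and by 1.28 with both (SE 0.124, 2.42-fold, adjusted p = 3.16e-09), while the Corin difference was 0.16 (SE 0.122, adjusted p = 0.449).

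**Figure D3:**
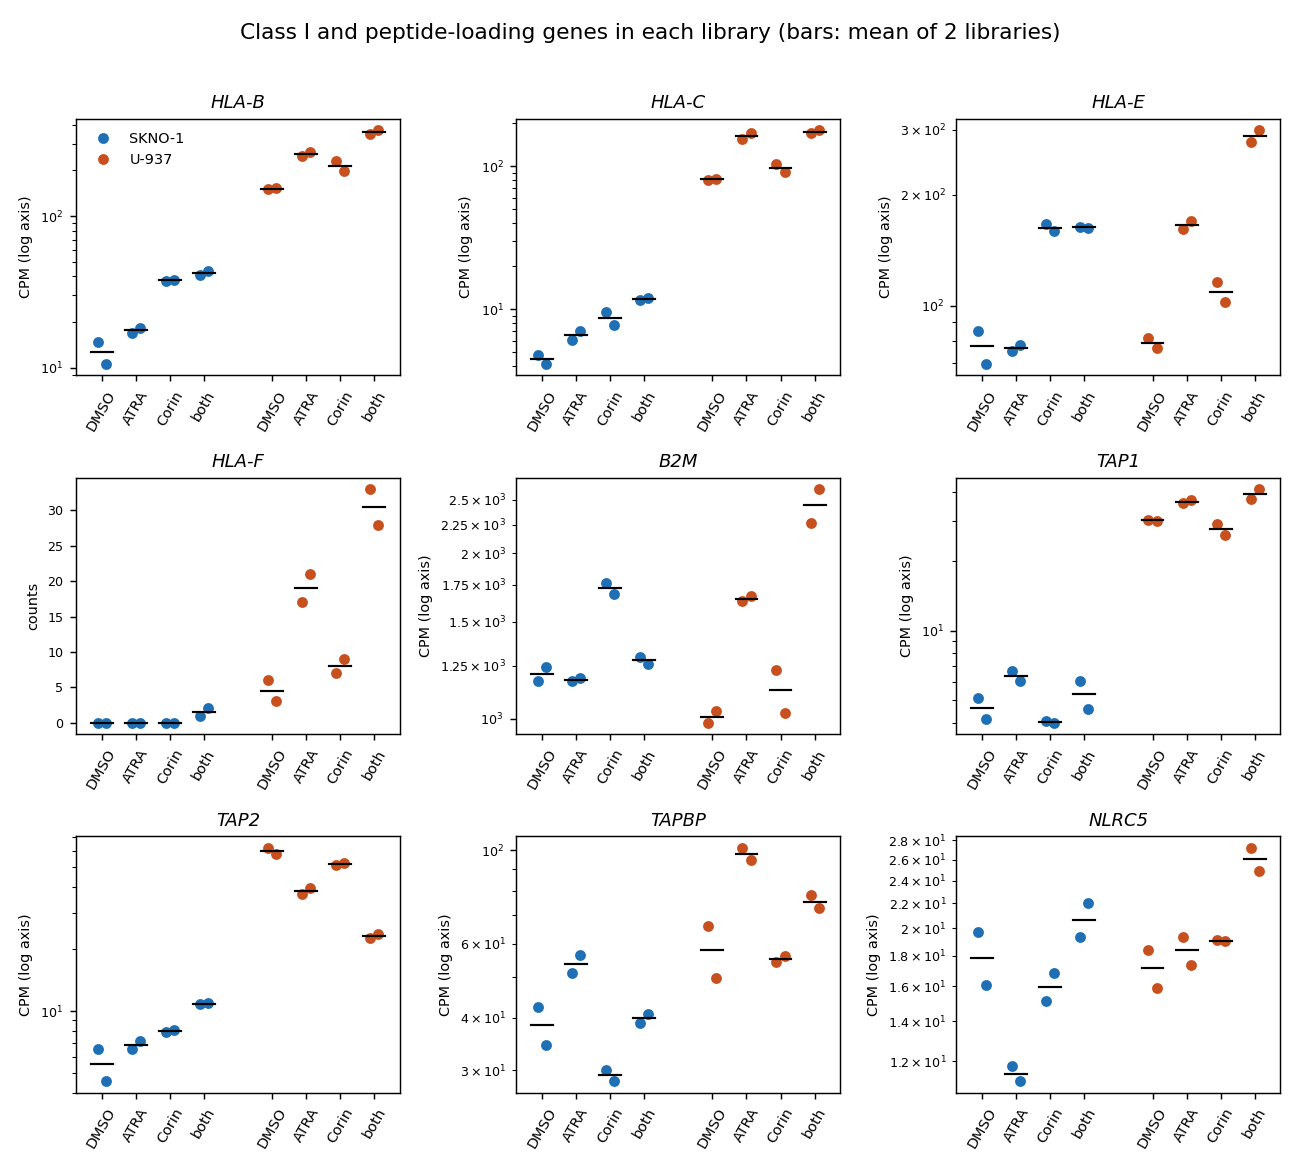
Each member in each library, SKNO-1 in blue and U-937 in orange, for DMSO, ATRA, Corin and both agents, in CPM on a log axis (HLA-F in counts on a linear axis). Points are libraries and bars their mean. HLA-E with both agents reaches 278.6 and 298.6 CPM in U-937, and TAP2 there falls to 22.5 and 23.6 CPM.

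TAP1 and TAP2 form the transporter that moves peptides into the endoplasmic reticulum, and they are needed together. TAP1 spanned a narrow range in both lines. In SKNO-1 it was at 5.09 and 4.16 CPM in DMSO, 6.69 and 6.03 under ATRA, 4.05 and 3.996 under Corin and 6.05 and 4.56 under the combination, and no difference from DMSO was called (log2 0.46, -0.20 and 0.20, adjusted p = 0.222, 0.428 and 0.405). Without DMSO replicate 1 the ATRA difference was 0.56 and was called (adjusted p = 0.0251). In U-937 it was at 30.1 and 30.0 CPM in DMSO, 35.6 and 36.9 under ATRA, 29.1 and 26.0 under Corin and 37.2 and 41.0 under the combination. Both groups that received ATRA were above the other groups in CPM. In TPM, DMSO was at 13.92 and 14.69, ATRA at 15.54 and 13.96, and the combination at 13.36 and 12.61. The direction for TAP1 with both agents thus depended on the measure. TAP1 rose by 0.38 with both agents (SE 0.106, 1.30-fold, adjusted p = 0.00293) and by 0.27 with ATRA (SE 0.105, adjusted p = 0.0419). The ATRA call was lost in 4 alternatives of normalization, filter, tool and GC correction (adjusted p = 0.0738 to 0.161), and without U-937 ATRA replicate 1 or 2, DMSO replicate 1 or 2, or replicate 2 of the combination (adjusted p = 0.0510 to 0.246).

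TAP2 fell in U-937 and rose in SKNO-1. In U-937 it was at 61.9 and 58.1 CPM in DMSO, 37.1 and 39.6 under ATRA, 51.4 and 52.1 under Corin and 22.5 and 23.6 under the combination. The 4 groups did not overlap, with DMSO highest and the combination lowest. TAP2 fell by 0.65 with ATRA (SE 0.0994, 1.57-fold, adjusted p = 1.21e-05) and by 1.38 with both (SE 0.103, 2.61-fold, adjusted p = 2.70e-11), and the Corin difference of -0.21 was not called (SE 0.0985, adjusted p = 0.170). Both agents together gave 0.52 less than the sum of the single effects (-0.52, SE 0.142, adjusted p = 0.00856). TAP2 was the only one of the 9 members called for a departure from additivity in U-937 (23.4% of all genes were called, 8.03% higher and 15.2% lower), where 4 members had an unadjusted p under 0.05. Without ATRA replicate 2 its departure was not called (-0.47, adjusted p = 0.0780).

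In SKNO-1, TAP2 was at 6.57 and 4.56 CPM in DMSO, 6.57 and 7.19 under ATRA, 7.92 and 8.08 under Corin and 10.8 and 10.9 under the combination. The 4 libraries with Corin were above the other 4. TAP2 rose by 0.97 with both agents (SE 0.174, 1.95-fold, adjusted p = 0.00271) and by 0.53 with Corin (SE 0.175, adjusted p = 0.0454). The Corin call was lost without DMSO replicate 2 (0.27, adjusted p = 0.128), without any 1 of the 6 treated libraries (0.51 to 0.54, adjusted p = 0.0830 to 0.175) and with only the 4 libraries compared (0.53, adjusted p = 0.143). The ATRA difference of 0.31 was not called (adjusted p = 0.424) and was 0.55 and called without DMSO replicate 1 (adjusted p = 0.00842). The 2 DMSO libraries differed by 0.53 on the log2 scale for TAP2, the widest gap of any tested member in that group.

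Counts of TAP2 per count of TAP1 within a library do not depend on how libraries are scaled. In U-937 this ratio was 2.05 and 1.94 with DMSO, 1.77 and 2.00 with Corin, 1.04 and 1.07 with ATRA, and 0.605 and 0.574 with both agents. In SKNO-1 it was 1.29 and 1.09 in DMSO, 0.982 and 1.19 under ATRA, 1.96 and 2.02 under Corin and 1.78 and 2.39 under the combination. The ratio was therefore lower in all 4 U-937 libraries that received ATRA than in the 4 that did not, and higher in all 4 SKNO-1 libraries that received Corin than in the 4 that did not. The ratio is not per transcript length, so it describes the change between groups and not the balance of the subunits.

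**Figure D4:**
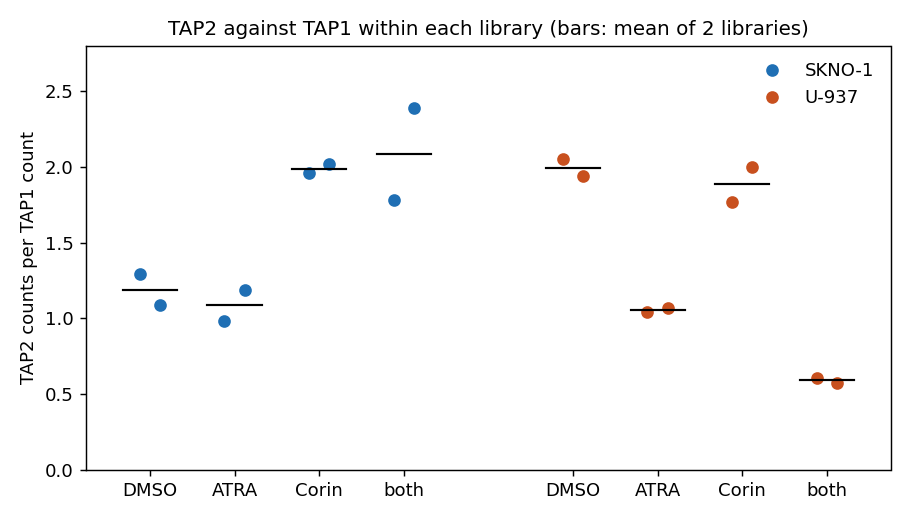
Estimated counts of TAP2 divided by those of TAP1 in each library, SKNO-1 in blue and U-937 in orange, with bars for the mean of 2 libraries. In U-937 the ratio is 2.05 and 1.94 with DMSO and 0.605 and 0.574 with both agents, and in SKNO-1 it is near or above 1.78 in the libraries with Corin.

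TAPBP encodes tapasin, which bridges the transporter and the heavy chain. It was higher with ATRA in both lines. SKNO-1 libraries had 42.5 and 34.5 CPM of TAPBP in DMSO, 51.1 and 56.3 under ATRA, 30.1 and 28.2 under Corin and 39.0 and 40.9 under the combination. ATRA libraries were the highest, Corin libraries the lowest, and the combination lay within the DMSO range. It rose by 0.48 with ATRA (SE 0.108, adjusted p = 0.0372) and fell by 0.40 with Corin (SE 0.110, adjusted p = 0.0225). The ATRA call was lost without any 1 of the 6 treated libraries (adjusted p = 0.0896 to 0.328) and with only the 4 libraries compared (adjusted p = 0.238). The Corin call was lost without Corin replicate 1 (-0.45, adjusted p = 0.0779) or replicate 2 (-0.36, adjusted p = 0.142) and with only the 4 libraries compared (-0.39, adjusted p = 0.0956). With both agents the difference was 0.05 (adjusted p = 0.719), and 0.20 and called without DMSO replicate 1 (adjusted p = 0.0292).

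In U-937, TAPBP was at 65.9 and 49.8 CPM in DMSO, 101.2 and 94.9 under ATRA, 54.2 and 56.1 under Corin and 78.3 and 72.7 under the combination. Both ATRA libraries were the highest, the Corin libraries lay within the DMSO range, and the combination lay between. In TPM the combination, at 16.8 and 13.8, overlapped DMSO, at 18.19 and 14.23. TAPBP rose by 0.76 with ATRA (SE 0.113, 1.69-fold, adjusted p = 7.74e-06) and by 0.38 with both (SE 0.113, adjusted p = 0.00480). The second call was lost without DMSO replicate 2 (0.19, adjusted p = 0.200) and with library totals in place of TMM (0.26, adjusted p = 0.118). Corin added to ATRA lowered TAPBP by 0.43 in SKNO-1 (-0.43, adjusted p = 0.0135) and by 0.38 in U-937 (-0.38, adjusted p = 0.00758). The SKNO-1 call was lost without either combination library or ATRA replicate 2 (adjusted p = 0.0563 to 0.127), and the U-937 call without ATRA replicate 1 (-0.34, adjusted p = 0.0626).

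NLRC5, the transactivator of class I genes, was called against DMSO only with ATRA in SKNO-1 and with both agents in U-937. SKNO-1 libraries had 19.7 and 16.1 CPM of NLRC5 in DMSO, 11.8 and 11.1 under ATRA, 15.1 and 16.8 under Corin and 19.3 and 22.0 under the combination. Only the ATRA libraries lay below the rest. NLRC5 fell by 0.64 with ATRA (SE 0.132, 1.56-fold, adjusted p = 0.0247), a call lost without any 1 of the 6 treated libraries (adjusted p = 0.0530 to 0.166) and with only the 4 libraries compared (-0.65, adjusted p = 0.154). Corin and the combination were not called against DMSO (-0.16 and 0.21). Corin was called without DMSO replicate 2 (-0.32, adjusted p = 0.0194) and the combination without DMSO replicate 1 (0.35, adjusted p = 0.0104). With both agents it was 1.81-fold higher than with ATRA alone (0.85, SE 0.132, adjusted p = 0.00138). Its departure from additivity was 1.01 (SE 0.185) and was not called (adjusted p = 0.0738), but was called with DESeq2 (adjusted p = 0.00109), with no filter on low counts (adjusted p = 2.10e-05), with the GC trend removed (0.75, adjusted p = 0.0174) and without either DMSO library.

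In U-937, NLRC5 was at 18.4 and 15.9 CPM in DMSO, 19.3 and 17.4 under ATRA, 19.1 and 19.0 under Corin and 27.2 and 24.9 under the combination. The combination libraries stood above the other 6. In TPM the combination, at 9.11 and 7.96, overlapped DMSO, at 8.68 and 7.36. NLRC5 rose by 0.60 with both agents (SE 0.120, 1.52-fold, adjusted p = 0.000112), and the single agents gave 0.10 and 0.15 (adjusted p = 0.548 and 0.469). The genes with the pattern most like that of NLRC5 were sought by the smallest root mean square difference in centred log2 CPM over the 8 libraries of a line. In SKNO-1 they were PRRT4, RASSF2, PWWP3A, PLXNA3 and MAP7D1 (0.116 to 0.146, among 10487 genes). In U-937 they were DHX34, RGP1, TMEM63B, MYO18A and AL353763.2 (0.0542 to 0.0637, among 10605 genes).

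For 0 of the 8 members tested in SKNO-1 was a departure from additivity called with edgeR (0.463% of all genes were called, 0.315% higher and 0.149% lower), while 2 had an unadjusted p under 0.05 and DESeq2 called 2, B2M and NLRC5. Departures were also called for HLA-B without DMSO replicate 1 (-0.52, adjusted p = 0.00687) and for HLA-E without DMSO replicate 2 (0.21, adjusted p = 0.0123). Corin added to ATRA in SKNO-1 raised 5 members and lowered 1 (44.8% of all genes were called, 23% higher and 21.8% lower). B2M was also called higher there without DMSO replicate 1 (0.15, adjusted p = 0.000451) or replicate 2 (0.15, adjusted p = 0.000506), and with the GC trend removed (0.38, adjusted p = 5.48e-05). ATRA added to Corin raised TAPBP and lowered B2M (10.4%, 4.82% higher and 5.6% lower). The TAPBP call of 0.45 (adjusted p = 0.0397) was lost without any 1 of the 6 treated libraries (adjusted p = 0.0743 to 0.240) and with the GC trend removed (0.19, adjusted p = 0.0563). Without either DMSO library the differences here were 0.17 for HLA-B, 0.46 for HLA-C, 0.41 for TAP1, 0.45 for TAP2 and 0.38 for NLRC5. In the fit of all 8 libraries they were 0.16, 0.45, 0.40, 0.44 and 0.37 and were not called. Whether these genes were called thus depended on the libraries in the fit, with values that hardly moved. In U-937, Corin added to ATRA raised HLA-B, HLA-E, B2M and NLRC5 and lowered TAP2 and TAPBP (47.4% of all genes, 22.5% higher and 24.8% lower). ATRA added to Corin raised 8 members, among them HLA-F with the filter limit given above, and lowered TAP2 (60.5%, 29.9% higher and 30.6% lower). Its TAPBP call of 0.45 was lost with library totals in place of TMM (0.32, adjusted p = 0.0644). The SKNO-1 TAP2 call of 0.66 for Corin added to ATRA (adjusted p = 0.0157) was lost without any 1 of the 4 ATRA or combination libraries (adjusted p = 0.0532 to 0.0913). The comparisons with each single agent share libraries with the comparisons with DMSO and are not independent of them.

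Of the 31 member calls against DMSO, 25 also had an adjusted p under 0.05 and the same direction in the authors' deposited tables, which come from DESeq2. The other 6 were TAPBP and NLRC5 with ATRA in SKNO-1, TAP2 and TAPBP with Corin in SKNO-1, and HLA-F and TAP1 with ATRA in U-937, whose adjusted p in the authors' deposited tables ran from 0.0514 to 0.213. No member left uncalled here was under 0.05 in the authors' deposited tables.

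Responses were compared between the lines by an interaction contrast in a fit of all 16 libraries, for the 8 members with counts in every group. With ATRA 4 members had a higher and 1 a lower log2 response in U-937 than in SKNO-1 (19.4% of all 19872 genes were called, 10.3% higher and 8.69% lower). HLA-E differed by 1.12 (SE 0.132, adjusted p = 5.33e-06), B2M by 0.78 (SE 0.142, adjusted p = 0.000511) and NLRC5 by 0.78 (SE 0.176, adjusted p = 0.00346). TAP2 differed by -0.92 (SE 0.177, adjusted p = 0.000867). HLA-C differed by 0.49 (adjusted p = 0.0493), a call lost in 19 of 22 alternatives. With Corin all 4 members called had the lower response in U-937 (12.8% of all genes, 5.21% higher and 7.2% lower): HLA-B (-1.07, SE 0.158), HLA-C (-0.68, SE 0.165), HLA-E (-0.61, SE 0.132) and TAP2 (-0.75, SE 0.175). The HLA-C call was lost without SKNO-1 Corin replicate 1 (-0.49, adjusted p = 0.110), and the TAP2 call without SKNO-1 Corin replicate 2 (-0.71, adjusted p = 0.0538) or U-937 DMSO replicate 1 (-0.68, adjusted p = 0.0531).

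With both agents, 2 members responded more and 2 less in U-937 (40.6% of all genes, 17.6% higher and 22% lower). The widest difference of the 8 was that of TAP2, at -2.31 (SE 0.176, adjusted p = 4.39e-09), and it was called in the same direction with each single agent. B2M differed by 1.24 (SE 0.142, adjusted p = 9.20e-07) and HLA-E by 0.83 (SE 0.131, adjusted p = 3.88e-05). HLA-B differed by -0.46 (SE 0.158, adjusted p = 0.0259), a call lost without SKNO-1 DMSO replicate 2 (-0.23, adjusted p = 0.199), SKNO-1 combination replicate 2, U-937 combination replicate 1 or either U-937 DMSO library (-0.47 to -0.41, adjusted p = 0.0606 to 0.0956). TAP1 and TAPBP were not called in these 3 contrasts as fitted. With the GC trend removed, TAPBP (0.51, adjusted p = 0.00214) and NLRC5 (0.61, adjusted p = 0.00179) were called for both agents and B2M for Corin (-0.36, adjusted p = 0.0111). TAPBP and NLRC5 were called for both agents without SKNO-1 DMSO replicate 2 (0.51 and 0.57) or U-937 DMSO replicate 1 (0.59 and 0.54). For Corin, TAPBP was called without either of these libraries (0.49 and 0.57), NLRC5 without the SKNO-1 one (0.47), and B2M without U-937 Corin replicate 1 (-0.46). The 2 lines were kept in different media, so line and medium cannot be told apart.

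**Figure D5:**
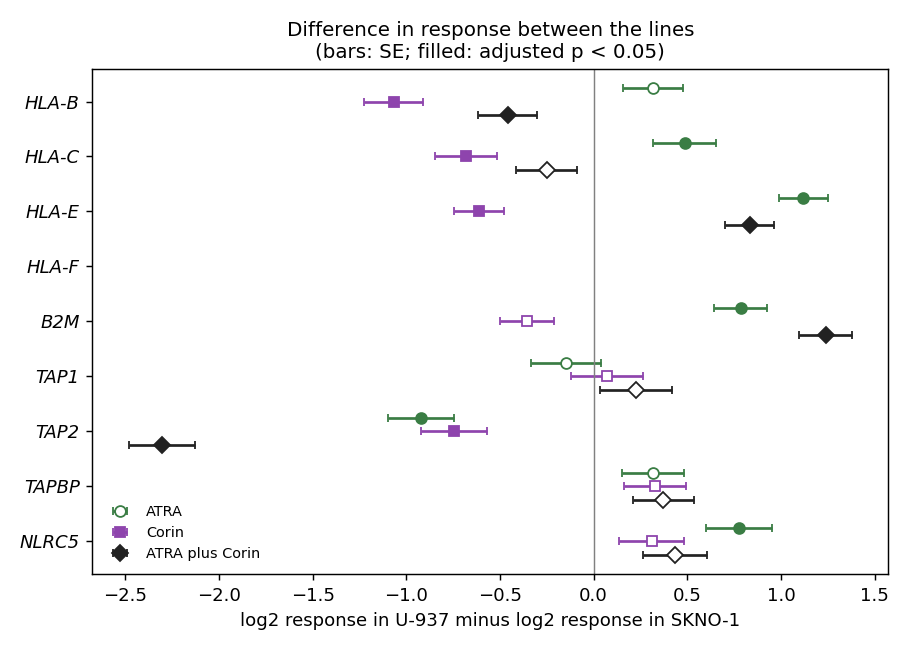
Log2 response in U-937 minus log2 response in SKNO-1 for each member, with ATRA (green circles), Corin (purple squares) or both agents (black diamonds). Bars are 1 SE and filled symbols passed an adjusted p of 0.05. TAP2 lies left of 0 with every treatment, down to -2.31 with both agents, HLA-E lies right of 0 with ATRA (1.12) and left of 0 with Corin (-0.61), and HLA-F has no finite estimate.

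The peptides are cut by the proteasome, whose interferon-inducible subunits PSMB8, PSMB9 and PSMB10 replace PSMB5, PSMB6 and PSMB7. Of the 9 genes of this list, which also holds the activators PSME1, PSME2 and PSME3, ATRA raised 3 and lowered 0 in SKNO-1, Corin raised 1 and lowered 8, and both agents raised 1 and lowered 4. The shares of all genes called in these 3 comparisons were 6.76%, 37.9% and 46.7%. The gene raised in all 3 was PSMB9, whose start lies 488 bases from that of TAP1. It went from 0.729 ± 0.360 CPM (SD, n = 2) with DMSO to 1.77 ± 0.0905 with ATRA, 2.69 ± 0.0643 with Corin and 5.31 ± 0.0771 with both. Its log2 differences were 1.29, 1.90 and 2.88 (SE 0.298, 0.289 and 0.282, adjusted p = 0.0415, 0.00165 and 0.000141). Corin lowered PSMB10 by 0.89 and PSMB5 by 0.70, and both agents lowered PSMB5 by 0.79.

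In U-937, ATRA raised 4 and lowered 4 of the 9 proteasome genes, Corin raised 1, and both agents raised 3 and lowered 5. The shares of all genes called there were 41.8%, 12.9% and 65.3%. PSMB9 rose from 11.2 ± 1.72 CPM with DMSO to 26.1 ± 1.41 with ATRA, 16.8 ± 4.2 with Corin and 28.8 ± 0.629 with both. PSMB10 rose by 1.62 with ATRA and 1.35 with both (SE 0.140 each). Among the genes that fell with both agents were the activator subunit PSME3 (-1.12, SE 0.110) and the constitutive subunit PSMB5 (-0.85, SE 0.113). PSMB8, the gene next to TAP2 and named after its values were seen, was at 125.9 ± 3.96 CPM in DMSO, 119 ± 8.34 under ATRA, 118.6 ± 15 under Corin and 99.0 ± 9.71 under the combination. It fell with both agents (-0.35, SE 0.106, adjusted p = 0.00633).

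Of the 8 genes of peptide trimming and folding in the endoplasmic reticulum, both agents raised 2 and lowered 5 in SKNO-1 and raised 4 and lowered 2 in U-937. With both agents, 46.7% of all genes were called in SKNO-1 and 65.3% in U-937. TAPBPL, which encodes the peptide editor TAPBPR, had the largest change of the list in U-937. It was at 2.09 ± 0.549 CPM in DMSO, 17.2 ± 0.453 under ATRA, 3.48 ± 0.0778 under Corin and 26.6 ± 0.00707 under the combination, a log2 rise of 3.04 with ATRA (SE 0.168) and 3.67 with both (SE 0.167, 12.7-fold, adjusted p = 3.55e-15). In SKNO-1 it rose by 0.81 with both agents (SE 0.252, adjusted p = 0.0305). The trimming aminopeptidase ERAP2 rose by 1.39 with ATRA and 1.63 with both in U-937, and in SKNO-1 by 0.33 and 0.38. In SKNO-1 ATRA raised 2 and lowered 1 of the list and Corin lowered 4, among them the chaperones HSPA5 (-0.80) and CALR (-0.39), and both agents lowered these by 1.12 and 0.99. In U-937 ATRA raised 4, Corin raised 3, and both agents lowered CALR (-0.59, SE 0.123) and UGGT1 (-0.26, SE 0.103). The shares of all genes called were 6.76% with ATRA and 37.9% with Corin in SKNO-1, and 41.8% and 12.9% in U-937.

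Among 15 regulators of class I transcription, IRF1 had the largest difference with ATRA and with both agents in both lines. In U-937 it was at 8.92 ± 0.231 CPM in DMSO, 108.6 ± 2.83 under ATRA, 19.7 ± 0.269 under Corin and 154 ± 3.61 under the combination. The log2 rise was 3.61 with ATRA (SE 0.109), 1.14 with Corin (SE 0.109) and 4.11 with both (SE 0.111, 17.3-fold, adjusted p = 3.10e-19). In SKNO-1 it was at 22.7 ± 3.73 CPM in DMSO, 74.2 ± 2.04 under ATRA, 27.6 ± 0.962 under Corin and 102.3 ± 1.13 under the combination, a rise of 1.71 with ATRA (SE 0.106, adjusted p = 6.98e-05) and 2.17 with both (SE 0.107, adjusted p = 5.73e-06).

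Counts for the list are read beside the shares of all genes given above, and their difference between lines was not tested. In SKNO-1 ATRA raised 1 of the 15 (6.76% of all genes were called), and Corin and the combination each raised 1 and lowered 5. NFYA, a subunit of the CCAAT-binding factor NF-Y, fell by 0.80 with Corin and 1.03 with both (SE 0.0621 and 0.0626). In U-937 ATRA raised 8 and lowered 1 (41.8% of all genes), Corin raised 2 and lowered 1, and both agents raised 8 and lowered 4. IRF9, an interferon regulatory factor, rose by 1.47 with ATRA and 3.10 with both (SE 0.160 and 0.157). RFXAP, a subunit of the RFX complex, fell from 13.0 ± 1.39 CPM with DMSO to 8.94 ± 0.844 with ATRA (-0.53, SE 0.158) and 2.83 ± 0.309 with both (-2.19, SE 0.177, adjusted p = 1.18e-10). NFYB fell by 0.95 with both agents (SE 0.115). Corin lowered JAK2 in U-937 (-0.51, SE 0.106).

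Interferon transcripts were at or near 0. IFNG and IFNL1 had 0 counts in all 16 libraries, and IFNB1 had 0 counts in U-937 and 2 to 6 counts per group in SKNO-1. A count of 0 over the 2 libraries of a group allows up to 3 counts. Of the 4 receptor genes, all detected, Corin raised 3 in each line, and both agents raised 2 in SKNO-1 and 3 in U-937. ATRA raised 0 in SKNO-1, while in U-937 it raised 3 and lowered IFNGR2 (-0.28). The shares of all genes called in SKNO-1 were 37.9% with Corin, 46.7% with both agents and 6.76% with ATRA. In U-937 they were 12.9%, 65.3% and 41.8%. IFNAR2 rose by 0.76 with both agents in SKNO-1 (SE 0.0870) and by 1.28 in U-937 (SE 0.0985), and IFNGR1 by 1.49 in U-937 (SE 0.108).

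Among the 7 other class I-like genes, 0 fell against DMSO in either line with edgeR. Corin and the combination each raised 5 of the 6 tested in SKNO-1 and ATRA 3, while in U-937 ATRA and the combination each raised 4 of the 5 tested and Corin 2. The shares of all genes called higher in SKNO-1 were 20.5% with Corin, 24.7% with the combination and 2.96% with ATRA. In U-937 they were 21.7% with ATRA, 33.1% with the combination and 8.55% with Corin. CD1D, which presents lipids, and FCGRT, the neonatal Fc receptor chain that pairs with B2M, rose with every treatment in both lines. CD1D went from 0.900 ± 0.118 to 5.48 ± 0.233 CPM with both agents in SKNO-1 (2.61, SE 0.188) and from 1.76 ± 0.660 to 45.1 ± 4.50 CPM in U-937 (4.67, SE 0.178). FCGRT went from 11.6 ± 3.25 to 44.5 ± 1.41 CPM in SKNO-1 (1.94, SE 0.175) and from 31.4 ± 3.38 to 240 ± 3.32 CPM in U-937 (2.93, SE 0.111). HLA-G had 0 to 5 counts per group and was not tested. Of the 4 class I pseudogenes that could share reads with the heavy chains, 2 were tested in each line and 1 rose, HLA-H with both agents in U-937 (1.52, SE 0.417), which is named after its values were seen. HLA-H had 27.9 to 83.6 estimated counts per group in U-937, against 9299 to 22341 for HLA-B.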

How the data were processed

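RNA-seq libraries were trimmed, aligned to hg38 and counted per gene with Trimmomatic, STAR and RSEM, per the submitters' processing notes, which also name deepTools and DESeq2. Versions, the annotation release and the strand setting of the counting are not given in the sources used here. The authors deposited estimated counts from RSEM, TPM values, and DESeq2 tables with log2 fold changes and p-values. Of the positive counts, 20.4% were not whole, and all were rounded to whole numbers for testing. The table and the single-library files differed by 0.

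Differences were tested with edgeR 4.0.16 (R 4.3.3, limma 3.58.1): TMM scaling, filterByExpr, and a robust quasi-likelihood F test. The 8 libraries of a line were fitted together with no block, leaving 4 residual degrees of freedom, and all 16 for comparisons between lines. Benjamini-Hochberg adjustment ran over the 17479 (SKNO-1), 17717 (U-937) or 19872 (both) genes tested, and adjusted p under 0.05 was a call. Log2 differences were not shrunken, and each SE was the difference divided by the square root of F. TPM was used to compare genes within a library and, without a test, to describe markers and some members across groups and lines. The steps were tested on simulated counts with 200 genes changed by 1 on the log2 scale, of which 99.5% were recovered for Corin against DMSO in SKNO-1 (16920 genes) and 97.5% in U-937 (17049 genes). Unchanged genes called numbered 14 and 6. The simulated libraries all had the same spread and no GC trend, so recovery with a pair as uneven as the SKNO-1 DMSO libraries was not tested. Alternatives were library totals, DESeq2 1.42.0, no filter, removal of each library's GC trend, a replicate block, only the 4 libraries compared, and leaving out each library.

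The members and gene lists were chosen with earlier results of these data known. All members are named. From each list, up to 2 called genes per direction with the largest log2 difference from DMSO and a mean of at least 1 CPM are named, and any other gene is said to be chosen after its values were seen. One gene of the regulators list is not reported here. Gene IDs matched GENCODE release 44 for 60306 of 60603 genes, and GC content was known for 99.5%. Figures were drawn with matplotlib 3.10.9.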

Additional observations from a re-analysis of the deposited data

Results flagged for a closer look

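The response to an agent differed between the lines, by a test of the difference itself, in 13 of 24 member contrasts. Of all genes, 19.4% were called with ATRA, 12.8% with Corin and 40.6% with both agents. The values below are the log2 response in U-937 minus that in SKNO-1, fitted with edgeR (quasi-likelihood F test, Benjamini-Hochberg adjusted). Under ATRA the difference was 0.49 for HLA-C, 1.12 for HLA-E, 0.78 for B2M, -0.92 for TAP2 and 0.78 for NLRC5. Under Corin it was -1.07 for HLA-B, -0.68 for HLA-C, -0.61 for HLA-E and -0.75 for TAP2. Under both agents it was -0.46 for HLA-B, 0.83 for HLA-E, 1.24 for B2M and -2.31 for TAP2. HLA-E was thus more responsive in U-937 to ATRA and less responsive to Corin. TAP2 had the lower response in U-937 under each treatment. Under 22 alternatives, the HLA-C call with ATRA was lost in 19 and the HLA-B call with both agents in 5. With Corin the TAP2 call was lost in 2 and the HLA-C call in 1. The member contrasts share the DMSO libraries of each line. Groups of 2 libraries are too small for a check of single libraries that lie far from the rest.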

How the results depend on the processing

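Of 2215 member values under alternatives, 2028 kept their side of the threshold, 96 lost a call, 89 gained one and 2 reversed. Among the 2028, 56 values changed sign without being called in either fit. The reversals were both HLA-E for ATRA added to Corin in SKNO-1, which was 0.00 and became -0.18 with the GC trend removed (adjusted p = 0.00934) and -0.18 with the GC trend removed and a replicate block (adjusted p = 0.0166).

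The number of members called for a departure from additivity in SKNO-1, 0 as reported, was 2 with DESeq2, 2 with no low-count filter, 1 with the GC trend removed and 1 with that and the block. The shares of all genes called, in the same order, were 0.463%, 1.76%, 4.71%, 3.25% and 2.59%. In U-937 the number of members was 1 as reported, 2 with library totals, 3 with DESeq2, 5 with the GC trend removed and 5 with that and the block. There the shares of all genes were 23.4%, 24.2%, 21.4%, 27.8% and 24.9%. With only the 4 libraries compared, ATRA against DMSO in SKNO-1 gave 0 calls in place of 2, and ATRA added to Corin gave 7 in place of 2. The share of all genes called was 1.51% in place of 6.76% for the first and 43.6% in place of 10.4% for the second. The cause was not tested.

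The labels do not say whether replicate numbers pair the libraries. The correlations of same-numbered deviations ran from -0.487 to 0.415. They cannot settle it, because replicate differences also followed GC content in some groups (r = 0.796 in SKNO-1 DMSO and 0.577 in U-937 DMSO). With the replicate number as a block, ATRA against DMSO in SKNO-1 gave 0 calls (TAPBP adjusted p = 0.0722, NLRC5 0.0579) and ATRA added to Corin in SKNO-1 gave 1 (TAPBP 0.0721). Of all genes, 5.17% and 6.1% were called in these comparisons with the block. The block also ended the calls of TAP2 with Corin in SKNO-1 (0.53, adjusted p = 0.0656), TAP1 with ATRA in U-937 (0.27, adjusted p = 0.0581) and the line difference of HLA-C with ATRA (0.48, adjusted p = 0.0784). Block and GC correction together ended those of TAPBP for Corin added to ATRA in U-937 (-0.25, adjusted p = 0.0547) and B2M between the untreated lines (-0.17, adjusted p = 0.0686). Counts of calls in the other comparisons stayed within 1.5 times.

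Leaving out each library in turn gave 0 to 7 calls for ATRA, 4 to 6 for Corin and 4 to 6 for both against DMSO in SKNO-1, 4 to 7 for Corin added to ATRA, 0 to 7 for ATRA added to Corin and 0 to 3 for the departure. In U-937 the same order gave 6 to 8, 1 to 3, 8 to 9, 5 to 6, 9 to 9 and 0 to 3. Between lines it gave 4 to 6 (ATRA), 3 to 6 (Corin), 3 to 5 (both) and 6 to 7 (DMSO). A lone library left in a group is assumed to vary like the other groups. The share of all genes called also moved with the library left out, so these counts do not describe the members alone. HLA-F, at 61 counts or fewer per group, is limited by depth.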
